A study of Mus musculus with 6 samples.

Results

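The 10 genes B2m, H2-K1, H2-D1, H2-T23, Tap1, Tap2, Tapbp, Psmb8, Psmb9 and Nlrc5 of the MHC class I pathway, which shows fragments of a cell's own proteins to T cells, were followed in RNA-seq libraries of mouse brain-derived endothelial cells. They were taken by symbol, 10 of the 24421 genes in the count table, and all 10 had enough reads to be tested. A class I molecule is a heavy chain bound to beta-2-microglobulin and a short peptide. Proteasomes cut the peptides, a transporter carries them into the endoplasmic reticulum, and chaperones hold the heavy chain there until a peptide fits. Interferons raise many of these genes, and endothelial cells, which line blood vessels and meet passing T cells, carry class I molecules at their surface.

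The study set 3 libraries labelled Fli-1 knockout (KO) against 3 labelled wild-type (WT), numbered 1 to 3 in each group. All were sorted brain-derived endothelial cells that had shared a culture with a vascular niche for 6 days after induction. The treatment label, deletion of the Fli-1 alleles started with 4-OHT (4-hydroxytamoxifen, the usual switch of inducible Cre lines), is the same for both groups. Which recombinase was used, and what promoter drove it, is not given in the sources used here. Nothing in the labels tells separate cultures or animals from repeat samples, so p-values measure only the spread between these libraries, which may be technical.

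Total counts were 17550185 to 21385951 per library. Fli1, the targeted gene, an ETS family transcription factor, had a normalised read count (CPM, reads scaled to a common library size) of 76.8, 111 and 77.4 in the libraries labelled KO, against 45.3, 59.6 and 45.8 CPM in those labelled WT. It rose in the libraries labelled KO in the test paired by number (adjusted p = 1.25e-15), though not in the unpaired one (adjusted p = 0.878). That is opposite to what a loss of the whole transcript would give. The count covers the whole gene and single exons were not examined, so whether the alleles were deleted was not tested. Every direction given here is therefore one between labels. Endothelial markers summed to 16200 to 18000 CPM in the libraries labelled KO and 15700 to 16800 CPM in those labelled WT, led by Cdh5, the endothelial cadherin. Fibroblast markers summed to 173, 1230 and 521 CPM in KO 1 to 3, against 242, 1720 and 558 CPM in WT 1 to 3. Mural cell markers, those of the pericytes and smooth muscle around vessels, summed to 2310, 3010 and 2650 CPM in KO 1 to 3, against 2270, 3300 and 2340 CPM in WT 1 to 3. Both sums were highest in the libraries numbered 2. In the test paired by number, 4.81% of all genes tested rose and 4.01% fell. Of 10 fibroblast markers tested, 1 rose and 5 fell in it. Of 12 mural markers, 0 rose and 3 fell (Pdgfrb, Cspg4 and Notch3), and of 12 endothelial markers, 2 rose (Emcn and Tek) and 0 fell. Blood cell markers summed to 249, 166 and 237 CPM in KO 1 to 3, against 207, 138 and 196 CPM in WT 1 to 3, most of it from Laptm5, a lysosomal protein gene. Of the 24 listed, 5 had enough reads to be tested, and Laptm5 and Coro1a rose in the paired test. Cd14, a monocyte marker on that list, went the other way from Laptm5 by number, with 7.09, 44.7 and 10.7 CPM in KO 1 to 3, against 4.39, 47.4 and 9.28 CPM in WT 1 to 3. The defining markers Adgre1, Tyrobp, Cd3e, Rac2 and Spi1 were among 8 with 0 reads in every library. Ptprc, the pan-leukocyte surface marker, had 5 reads in all in the libraries labelled KO and 11 in those labelled WT.

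Of the 10 genes, 8 lie on mouse chromosome 17, in or near the MHC. On GRCm38 the heavy chain genes H2-K1 (chr17:33996017-34000347, minus strand), H2-D1 (chr17:35262730-35267499, plus strand) and H2-T23 (chr17:36029773-36032855, minus strand) are spread along it. Tapbp (chr17:33915899-33929292, plus strand), the tapasin gene, lies near H2-K1. Psmb9 (chr17:34181987-34187764, minus strand), Tap1 (chr17:34187553-34197225, plus strand), Psmb8 (chr17:34197721-34201454, plus strand) and Tap2 (chr17:34203527-34216321, plus strand) stand in a row. The light chain gene B2m (chr2:122147686-122153083, plus strand) and the regulator Nlrc5 (chr8:94434356-94527272, plus strand) lie elsewhere.

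The promoters of B2m and the heavy chain genes are known for a composite element, the SXY module, on which Nlrc5 acts together with DNA-binding factors. The 5 promoters below, from RefSeq (GRCm38.p6), span the annotated start and are written 5′ to 3′ on the gene's own strand. They are shown as those of the light chain, both classical heavy chains, a transporter chain and tapasin. Capitals mark matches on either strand to 3 short motifs, an interferon-stimulated response element (ISRE: GAAA, any pair of bases, GAAA), the X2 box core (TGACG) and the Y box core (ATTGG). The stretches are chr2:122147437-122147736 (plus) for B2m, chr17:34000298-34000597 (minus) for H2-K1, chr17:35262844-35263143 (plus) for H2-D1, chr17:34187306-34187605 (plus) for Tap1 and chr17:33919228-33919527 (plus) for Tapbp.
B2m: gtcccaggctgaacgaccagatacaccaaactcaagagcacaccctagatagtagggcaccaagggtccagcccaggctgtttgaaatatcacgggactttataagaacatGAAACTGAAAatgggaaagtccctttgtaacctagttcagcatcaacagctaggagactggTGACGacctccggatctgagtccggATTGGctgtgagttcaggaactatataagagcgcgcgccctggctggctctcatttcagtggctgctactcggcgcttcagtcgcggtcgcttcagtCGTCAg
H2-K1: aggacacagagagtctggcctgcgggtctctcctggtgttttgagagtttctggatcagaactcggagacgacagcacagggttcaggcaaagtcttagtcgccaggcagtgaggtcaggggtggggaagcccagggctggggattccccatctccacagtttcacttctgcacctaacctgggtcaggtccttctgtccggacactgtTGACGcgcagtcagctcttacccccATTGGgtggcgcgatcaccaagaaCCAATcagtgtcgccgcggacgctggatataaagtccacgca
H2-D1: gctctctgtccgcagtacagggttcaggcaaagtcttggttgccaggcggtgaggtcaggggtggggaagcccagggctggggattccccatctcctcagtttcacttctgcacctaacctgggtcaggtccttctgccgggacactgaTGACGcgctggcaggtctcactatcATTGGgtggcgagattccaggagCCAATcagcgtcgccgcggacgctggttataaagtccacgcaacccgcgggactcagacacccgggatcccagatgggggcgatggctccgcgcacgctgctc
Tap1: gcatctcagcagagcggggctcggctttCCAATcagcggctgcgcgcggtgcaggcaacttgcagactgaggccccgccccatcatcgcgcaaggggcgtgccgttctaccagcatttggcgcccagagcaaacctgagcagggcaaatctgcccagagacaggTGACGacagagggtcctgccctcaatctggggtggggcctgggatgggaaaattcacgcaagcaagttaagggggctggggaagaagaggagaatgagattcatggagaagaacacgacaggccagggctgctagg
Tapbp: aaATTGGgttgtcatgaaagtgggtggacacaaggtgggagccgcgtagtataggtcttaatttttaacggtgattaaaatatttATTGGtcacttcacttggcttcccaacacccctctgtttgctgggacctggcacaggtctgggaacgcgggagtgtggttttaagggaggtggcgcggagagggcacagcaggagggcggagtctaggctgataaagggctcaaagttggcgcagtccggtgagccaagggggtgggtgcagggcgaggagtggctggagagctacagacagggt

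Promoter entries matched 8 of the 10 genes, all but Tap2 and Nlrc5, and H2-K1 had 2 starts in the table, of which the first was used. In B2m, H2-K1 and H2-D1 an X2 box core stood exactly 20 bases before a Y box core on the gene's strand. That spaced pair was found in 3 of the 8 promoters and in 26 of all 27025 promoters of the same length (0.0962%), among them that of the class I-like gene H2-M3. H2-M3 had 14.9, 13.6 and 13.6 CPM in KO 1 to 3, against 12.3, 13.9 and 14.5 CPM in WT 1 to 3, and did not share the ranking by replicate number described further on for B2m (adjusted p = 0.939 for the number). The spacing was chosen after the positions in these genes were seen. Singly, the cores were common: ATTGG was in 7 of 8 against 37.9% of all promoters, and TGACG in 5 of 8 against 21% of all. The ISRE letters were found in 2 of 8, B2m and H2-T23, against 3.49% of all. Only these exact letters were searched, so variants of the element were missed. The count does not say that the H2-K1 and H2-D1 promoters lack one. The letters CCGGAA, an ETS family core, were in 0 of 8 against 15.2% of all, which says only that these letters are not in these windows. The H2-K1 and H2-D1 promoters matched at 206 of 228 aligned bases (90.4%), so their shared motifs are not separate instances. The starts of Tap1 and Psmb9 lay 226 bases apart on opposite strands, and their promoter windows shared 275 bases.

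Heavy chain genes resemble each other, and whether reads fitting more than 1 of them were counted is not given in the sources used here. The coding sequences of H2-K1 and H2-D1 were identical at 88.3% of aligned bases, those of H2-D1 and H2-T23 at 79.9%, and those of H2-K1 and H2-T23 at 78.4%. The longest stretch without a difference between H2-K1 and H2-D1, coding bases 738 to 828 of H2-K1 in GENCODE M21, shows how much of a read can fit both genes.
H2-K1 and H2-D1: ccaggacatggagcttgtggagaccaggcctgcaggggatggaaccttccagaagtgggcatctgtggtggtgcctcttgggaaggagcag
Of all 50-base windows of the transcript, 8.79% in H2-K1, 14.3% in H2-D1 and 28.8% in H2-T23 were also found in a transcript of another gene. With 100-base windows the shares were 0%, 4.64% and 7.28%. Values of single heavy chain genes, H2-T23 above all, are uncertain for this reason. The shares do not measure by how much, which was not tested. Tapbp shared 2% of its 50-base windows, with 211 other genes, and 0.107% of its 100-base windows. Tap1 and Tap2 shared 0.861% and 0.737% of their 50-base windows, with each other. B2m, Psmb8, Psmb9 and Nlrc5 shared no 50-base window with another gene.

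Divided by transcript length, which lets genes be compared, the 10 genes spanned a wide range, and the order given here is that of the mean over all 6 libraries. B2m was highest, at 932 ± 175 CPM per kilobase in the libraries labelled KO and 958 ± 196 in those labelled WT (SD, n = 3 each, as throughout). H2-K1 followed, at 220 ± 40.5 CPM per kilobase in KO and 223 ± 54.7 in WT. Tapbp stood at 78.3 ± 6.72 in KO and 67.1 ± 7.85 in WT on the same scale, next to H2-D1 at 67.4 ± 11.4 in KO and 67.3 ± 14.0 in WT. The libraries of Tapbp and H2-D1 overlapped, so their order is not set. Tap2 came next, at 19.2 ± 1.92 CPM per kilobase in KO and 20.3 ± 1.69 in WT. Psmb8, H2-T23 and Tap1 overlapped each other, between 9.14 and 14.5 CPM per kilobase over the 6 libraries. Psmb9 lay at 4.67 to 6.75 CPM per kilobase, and Nlrc5, the regulator, was lowest at 0.741 to 1.51. B2m alone made up 47.6% of the 10 genes' summed CPM in KO and 49.1% in WT, and H2-K1 21.2% in KO and 21.4% in WT.

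**Figure D1:**
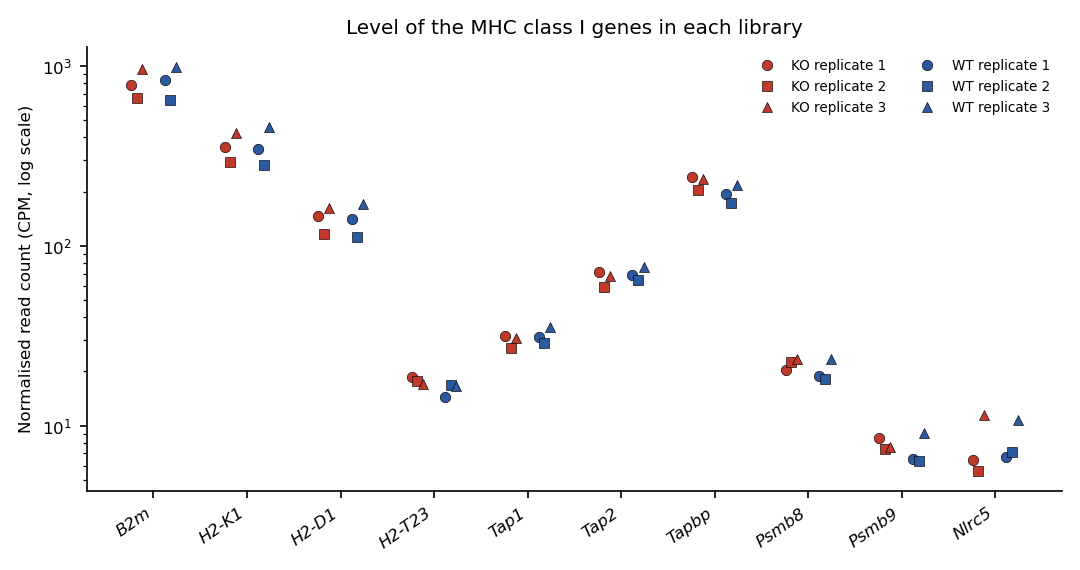
Normalised read count (CPM, log axis) of the 10 genes in each library, with KO left of WT for each gene and one point per library, its shape giving the replicate number. B2m lies between 648 and 984 CPM and Nlrc5 between 5.61 and 11.5 CPM, and the points of both groups overlap in all genes but H2-T23.

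None of the 10 genes passed the test between the libraries labelled KO and those labelled WT (edgeR quasi-likelihood F test, Benjamini-Hochberg false discovery rate of 0.05 over 12753 genes tested), where 1 gene in all passed (0.00784%). Libraries with the same number deviated together in both groups, so a second test took the number as a block. In that paired test 1 of the 10 genes, Tapbp, rose and 0 fell, against 8.81% of all genes that passed, 4.81% that rose and 4.01% that fell. Those shares stand for 613 and 511 genes, and scaling by library size only turned the balance to 471 and 734. The libraries labelled KO and WT did not overlap in 1 of the 10, H2-T23, against 10.2% of all genes tested. The median log2 fold change was -0.007 over the 10 genes and -0.004 over all genes tested. In these bulk samples, fewer cells of a type and less RNA per cell cannot be told apart.

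B2m, the light chain that every class I molecule needs, had 786, 660 and 959 CPM in KO 1 to 3, against 840, 648 and 984 CPM in WT 1 to 3. Library 2 was lowest and library 3 highest in each group, and the groups overlapped over nearly their whole range. The log2 fold change, KO over WT, was -0.04 ± 0.19 (SE, adjusted p = 0.996), with a 95% interval of -0.50 to 0.42. In the paired test the interval narrowed to -0.12 to 0.05 (log2 fold change -0.04, adjusted p = 0.681), and the 3 pairs gave -0.10, 0.03 and -0.04.

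H2-K1 encodes a classical heavy chain, which presents peptides to cytotoxic T cells. Its level was 354, 292 and 423 CPM in KO 1 to 3, against 346, 281 and 456 CPM in WT 1 to 3. The ranking of the numbers was again 2, 1, 3 in each group, and the groups overlapped. The log2 fold change was -0.02 ± 0.21 (adjusted p = 0.996), and the paired interval was -0.09 to 0.08.

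H2-D1, the other classical heavy chain of the list, had 146, 116 and 163 CPM in KO 1 to 3, against 141, 112 and 171 CPM in WT 1 to 3. It followed the same ranking of numbers. Its log2 fold change was 0.0040 ± 0.19 (adjusted p = 0.997), and the paired interval was -0.08 to 0.10. The 19 class I heavy chain and class I-like H2 genes summed to 599, 500 and 695 CPM in KO 1 to 3, against 578, 482 and 740 CPM in WT 1 to 3. Reads that were dropped or counted more than once for fitting several genes would still affect that sum, which had a log2 fold change of -0.0042 ± 0.19 (adjusted p = 0.997).

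H2-T23 encodes Qa-1, a nonclassical molecule that binds mainly leader peptides of other class I chains and is seen by natural killer cells. It had 18.7, 17.7 and 17.1 CPM in KO 1 to 3, against 14.5, 16.8 and 16.5 CPM in WT 1 to 3. All 3 libraries labelled KO lay above all 3 labelled WT, and WT 1 was the lowest of the 6. The log2 fold change was 0.16 ± 0.09 (95% interval -0.06 to 0.38, adjusted p = 0.996) and missed the threshold with the block too (adjusted p = 0.271). The pairs gave 0.37, 0.07 and 0.05, so pair 1 was the largest, and without pair 1 the paired log2 fold change was 0.06. It is also the gene with the highest share of windows found in other genes.

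Tap1 and Tap2 form the transporter that moves peptides into the endoplasmic reticulum. Tap1 had 31.6, 27 and 30.8 CPM in KO 1 to 3, against 31.0, 28.7 and 35.5 CPM in WT 1 to 3. The groups overlapped, and WT 3 was the highest library. Tap2 had 71.8, 58.9 and 68.0 CPM in KO 1 to 3, against 68.5, 64.6 and 76.0 CPM in WT 1 to 3, with the same highest and lowest positions, WT 3 and KO 2. The log2 fold changes were -0.09 ± 0.10 for Tap1 and -0.07 ± 0.09 for Tap2 (adjusted p = 0.996 each). Their paired 95% intervals were -0.22 to 0.05 for Tap1 and -0.18 to 0.03 for Tap2.

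Tapbp, tapasin, bridges the transporter and empty class I molecules and edits which peptides they keep. It had 241, 205 and 235 CPM in KO 1 to 3, against 193, 172 and 218 CPM in WT 1 to 3. Each library labelled KO was above the WT library of its number, but the groups overlapped, since KO 2 was below WT 3. Without the block the log2 fold change was 0.22 ± 0.10 (95% interval -0.02 to 0.46, adjusted p = 0.996). With the block it was 0.23 ± 0.04 (95% interval 0.14 to 0.31, adjusted p = 0.000239, higher in 3 of 3 pairs). The pairs gave 0.32, 0.25 and 0.11, so pairs 1 and 3 lay outside that interval. Its width borrows from the spread of all genes, with a median of 40.8 degrees of freedom against 2 residual ones. The interval and p-value therefore do not rest on these 3 pairs alone. Leaving out pair 2, whose libraries held the most fibroblast and mural transcripts, gave 0.21 (adjusted p = 0.024). Fibroblast marker sums were lower, and blood cell marker sums higher, in the library labelled KO of every pair. Mural marker sums were higher in the library labelled KO in pairs 1 and 3 and lower in pair 2. In the paired test the mural markers Pdgfrb, Cspg4 and Notch3 fell, while Rgs5, Tagln and Mcam lay above 0 without passing. The endothelial markers Emcn and Tek rose, while Kdr, Cldn5 and Egfl7 lay below 0 without passing. The part of these transcripts in the Tapbp difference was not tested. Of the exons of Tapbp, 24.9% overlapped an antisense gene, Gm19412, which had no row in the table, and 4.11% overlapped Zbtb22 on the same strand, which did not pass either test.

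The other chaperones and trimming enzymes of the pathway did not move past the threshold. Of 8 such genes tested, 0 rose and 0 fell in either test, against 4.81% and 4.01% of all genes tested in the paired one. Canx, calnexin, which folds new heavy chains, averaged 725 ± 24.5 CPM in KO and 709 ± 17.7 CPM in WT. Pdia3, the partner of tapasin in the loading complex, averaged 724 ± 45.5 CPM in KO and 707 ± 28.2 CPM in WT. Tapbpl, which encodes the tapasin-related editor TAPBPR, averaged 24.4 ± 1.52 CPM in KO and 23.1 ± 2.18 CPM in WT.

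**Figure D2:**
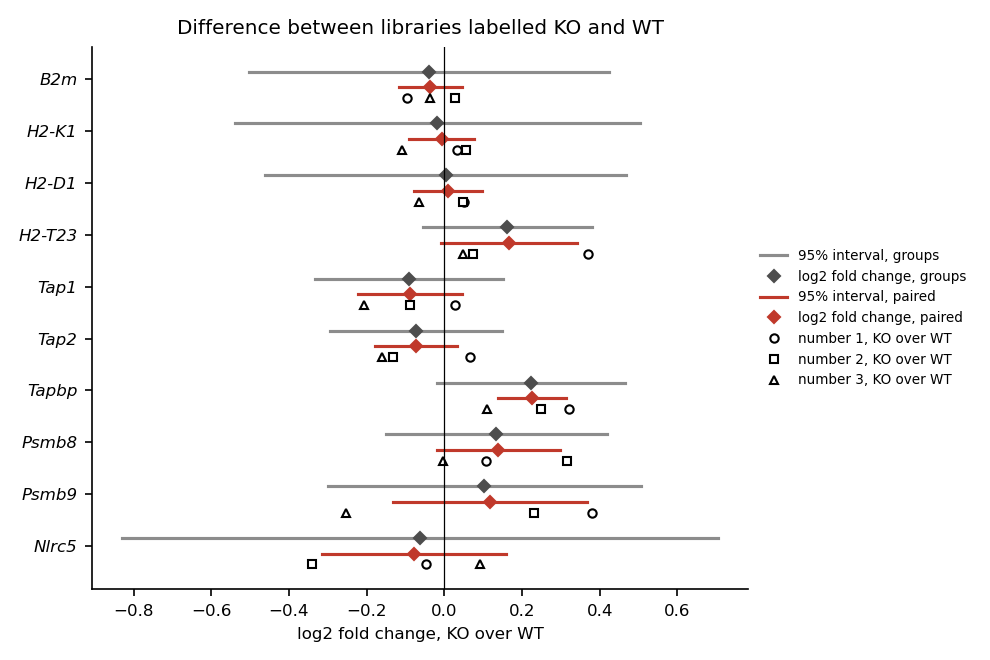
Log2 fold change, KO over WT, of each gene with its 95% interval from the test without the block (grey) and with it (red), and the value of each same-numbered pair (open symbols). The red interval of Tapbp, 0.14 to 0.31, lies above 0, and those of the other 9 genes include 0.

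Psmb8 and Psmb9 replace 2 catalytic subunits of the standard proteasome to form the immunoproteasome, which cuts peptides that class I molecules hold well. Psmb8 had 20.3, 22.7 and 23.5 CPM in KO 1 to 3, against 18.8, 18.2 and 23.6 CPM in WT 1 to 3. The groups overlapped through WT 3. The log2 fold change was 0.13 ± 0.12 (adjusted p = 0.996), with a paired interval of -0.02 to 0.30. Psmb9 had 8.52, 7.43 and 7.65 CPM in KO 1 to 3, against 6.54, 6.32 and 9.13 CPM in WT 1 to 3. WT 3 was again the highest, and pair 3 went the other way from pairs 1 and 2 (log2 -0.25, against 0.38 and 0.23). The log2 fold change was 0.10 ± 0.17 (adjusted p = 0.996). Psmb9 and Tap1 share 212 exonic bases on opposite strands, 5.79% of the exons of Psmb9, and the labels name both a stranded and a non-stranded library kit, so reads there cannot be told apart.

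Per kilobase, the inducible subunits were well below the constitutive ones they replace. The ratio of Psmb8 to Psmb5 was 0.185 ± 0.0119 in KO and 0.179 ± 0.0129 in WT, and that of Psmb9 to Psmb6 was 0.0529 ± 0.0043 in KO and 0.0517 ± 0.0063 in WT. The ratio of Psmb10, the remaining inducible subunit, to Psmb7 was 0.195 ± 0.0079 in KO and 0.178 ± 0.0140 in WT, and was higher in KO in 3 of 3 pairs, though in pair 1 both libraries rounded to 0.189. Exact two-sided permutation tests gave p = 0.6, 0.9 and 0.1, the last being the smallest that 3 against 3 libraries can give, and 0.9, 0.9 and 0.3 after adjustment over the 3 ratios. Among the 9 partners of the inducible subunits and the 11 other core subunits listed, 0 rose and 0 fell in either test. Of all genes tested, 4.81% rose and 4.01% fell in the paired one.

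**Figure D3:**
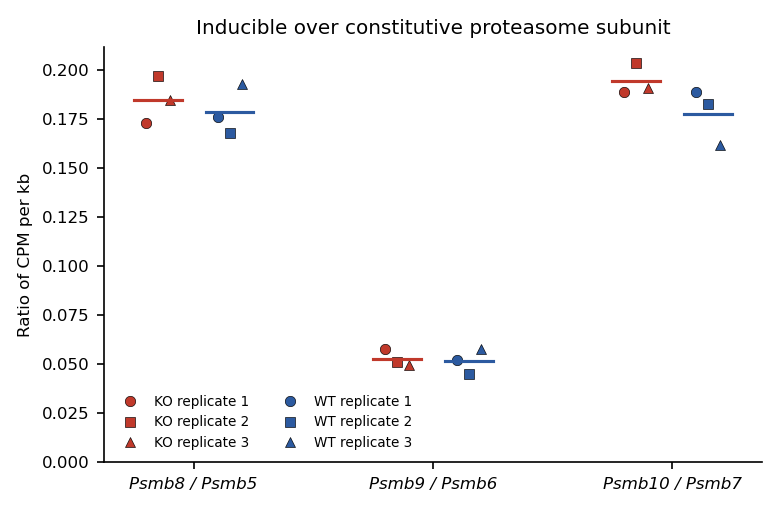
Ratio of each inducible catalytic subunit to the constitutive subunit it replaces, both as CPM per kilobase, in each library, with KO left of WT, shapes for the replicate number and bars for the group mean. The ratio of Psmb9 to Psmb6 lies at 0.0452 to 0.0578 in all 6 libraries, and the ratios of the other pairs lie at 0.162 to 0.204.

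Nlrc5, the transactivator of class I genes, had 6.47, 5.61 and 11.5 CPM in KO 1 to 3, against 6.68, 7.13 and 10.8 CPM in WT 1 to 3. Library 3 was highest in each group, and the groups overlapped. The log2 fold change was -0.06 ± 0.32 (95% interval -0.83 to 0.70, adjusted p = 0.996), the widest interval of the 10, and the paired interval was -0.32 to 0.16. Of 23 regulators of the pathway listed, 2 rose and 0 fell in the paired test, where 4.81% of all genes tested rose and 4.01% fell. Without the block 0 of the 23 regulators passed. Among them Ifngr1, a chain of the interferon gamma receptor, had 150, 150 and 132 CPM in KO 1 to 3, against 132, 131 and 126 CPM in WT 1 to 3 (paired log2 fold change 0.15, adjusted p = 0.0243). It was higher in the library labelled KO of every pair. Irf1, an interferon-induced activator of class I promoters, averaged 46.2 ± 0.783 CPM in KO and 48.7 ± 2.07 CPM in WT and did not pass (paired adjusted p = 0.474).

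Interferon transcripts themselves were at or near 0. Of 9 interferon genes listed, 7 had 0 reads in every library, Ifng among them. Ifnb1 had 3 reads in all in the libraries labelled KO and 1 in those labelled WT, and Ifna4 had 2 in KO and 0 in WT. In the paired test, where 4.81% of all genes tested rose and 4.01% fell, 1 of 31 interferon-induced genes tested rose and 0 fell. That gene was Oas1a, a sensor of double-stranded RNA, at 5.09, 2.09 and 5.27 CPM in KO 1 to 3, against 3.15, 1.33 and 4.23 CPM in WT 1 to 3 (paired log2 fold change 0.53, adjusted p = 0.0473). Bst2, tetherin, the most abundant of them, averaged 251 ± 43.0 CPM in KO and 241 ± 48.9 CPM in WT.

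In all of the 10 genes but H2-T23, Tapbp and Psmb9, the replicate number went with most of the spread between libraries. As a term in the paired model, the number passed the same threshold in 7 of the 10 genes (B2m, H2-K1, H2-D1, Nlrc5, Tapbp, Tap2 and Tap1), against 34.1% of all genes tested and 35.3% of those at least as abundant as the lowest of the 10. This term was added after the values were seen. The number took 98.3% of the variance of log2 CPM between the 6 libraries in B2m, 97.9% in H2-K1, 98.6% in H2-D1 and 92.8% in Nlrc5, where the label took 0.562%, 0.0144%, 0.055% and 1.66%. Tapbp was split between them, with 46.2% for the label and 47% for the number. H2-T23 stood apart, with 5.53% for the number and 52.7% for the label. The medians were 10.3% for the label and 71% for the number over the 10 genes, against 11% and 61.5% over all genes tested.

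**Figure D4:**
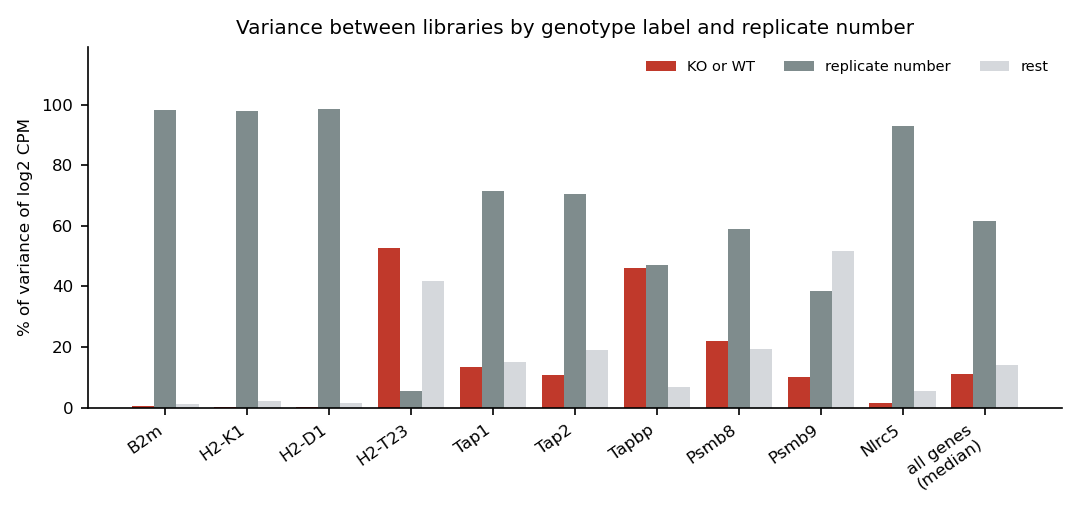
Share of the variance of log2 CPM between the 6 libraries that goes with the KO or WT label, with the replicate number and with neither, for each of the 10 genes and as the median over all genes tested. The number takes over 90% in B2m, H2-K1, H2-D1 and Nlrc5, while H2-T23 has 5.53% for the number.

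The libraries numbered 2 were lowest in both groups in 7 of the 10 genes, against 2830 of all 12753 genes tested. Those numbered 3 were highest in both groups in 5 of the 10, against 2463 of the 12753. B2m, H2-K1 and H2-D1 ranked 2, 1, 3 in both groups, as did 7.72% of all genes tested. A fit without the libraries numbered 2 was also added after the values were seen. It left fewer residual degrees of freedom than the 2 of the paired model. Its p-values therefore rest mostly on spread borrowed from all genes. In it the number was still called in 5 of the 10 genes, against 13.8% of all genes. Between number 3 and number 1 the log2 fold change was then 0.26 in B2m (adjusted p = 0.00102), 0.33 in H2-K1 (adjusted p = 7.12e-06), 0.22 in H2-D1 (adjusted p = 0.00768), 0.27 in Psmb8 (adjusted p = 0.0497) and 0.76 in Nlrc5 (adjusted p = 4.91e-06). Tap1, Tap2 and Tapbp lost the call in this smaller fit. Psmb8 gained it only by a narrow crossing of the threshold, from adjusted p = 0.052 for the number with all libraries to 0.0497. The libraries numbered 2 also held the most fibroblast and mural transcripts and the lowest sums of blood cell markers, though the highest Cd14, and their part in the lower class I levels was not tested. The labels do not say what the number stands for.

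**Figure D5:**
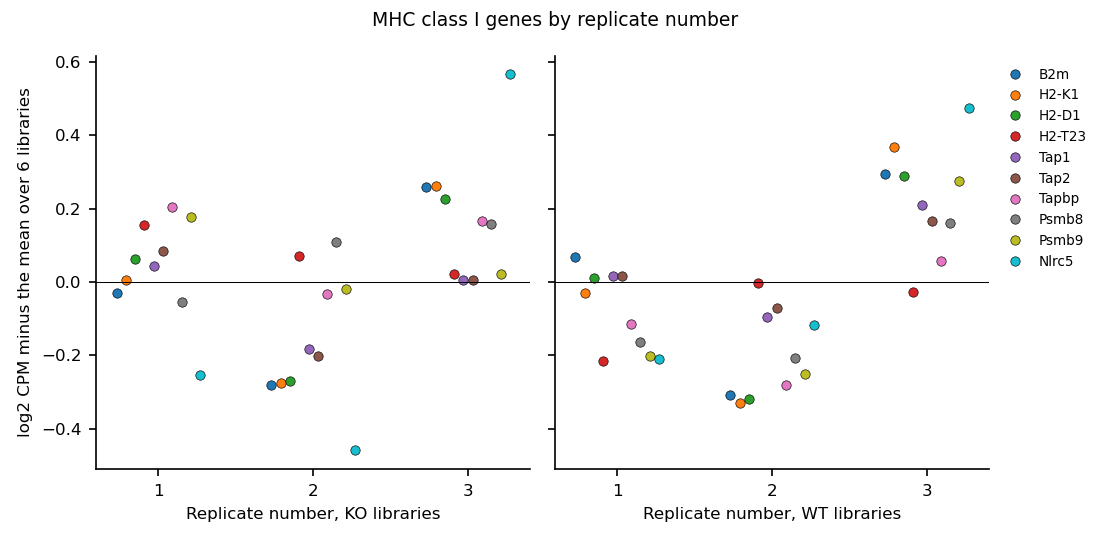
Log2 CPM of each of the 10 genes, centred on its mean over the 6 libraries, by replicate number, in KO (left panel) and WT libraries (right panel), with a colour for each gene. In both panels B2m, H2-K1 and H2-D1 lie lowest at number 2 and highest at number 3, and Nlrc5 is the highest point at number 3.

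Among interferon-induced genes, the number was called in 21 of the 31 tested (67.7%), set beside 34.1% of all genes tested. Of the same 31, 13 (41.9%) ranked 2, 1, 3 in both groups, set beside 7.72% of all genes tested. Among genes with a mean of at least 10 CPM, the 5 whose centred log2 CPM over the 6 libraries lay nearest to the mean profile of the 10 genes were Zfpm1, Mlkl, Cptp, Capg and Tmem88. Their root mean square differences from it were 0.0246 to 0.0314. The median was 0.205 over all genes tested, without the CPM limit. As the 5 were picked for being nearest, a place below the median was fixed in advance. Nearest to H2-K1 alone were Ifi27, Arl4c, Lyl1, Plaur and Bst2, in that order, at 0.0439 to 0.0641. Nearest to B2m alone were Lyl1, Arl4c, Mxra7, Plaur and Fam107b, at 0.0385 to 0.0565.

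Outside the 10 genes, the class I family was led by H2-Q4, a nonclassical heavy chain gene, with 58.4, 52.9 and 71.6 CPM in KO 1 to 3, against 56.9, 50.8 and 74.2 CPM in WT 1 to 3. It ranked by number as B2m did, and its log2 fold change was 0.0088 (adjusted p = 0.996). Of 21 further class I and class I-like genes listed, 10 had enough reads to be tested, and 7 had 0 reads, among them H2-Q7 and H2-Q10. Of the 10 tested, 0 rose and 0 fell in either test, against 4.81% and 4.01% of all genes tested in the paired one. Class II genes, which present peptides to helper T cells, were near 0. The 12 listed summed to 2.47 to 3.58 CPM in KO and 3.15 to 4.13 CPM in WT, H2-Aa had 0 reads, and Ciita, the class II counterpart of Nlrc5, had 14 reads in all in KO and 17 in WT.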

How the data were processed

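Polyadenylated RNA was sequenced from 6 sorted samples. The deposited table holds raw read counts per gene symbol, not normalised by the authors. Per the submitters' processing notes, the tools were FastQC 0.11.8, Trim Galore 0.6.4, STAR 2.6.1d and Subread 1.6.4 with featureCounts, on mm10 (GRCm38), with annotation, strand setting and handling of multi-mapping reads not given in the sources used here. Either of 2 kits, stranded or not, made each library, per the labels.

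The tests used edgeR 4.0.16 in R 4.3.3, with filterByExpr (12753 of 24421 genes kept), TMM scaling, the robust quasi-likelihood F test and p-values adjusted by Benjamini and Hochberg's method over all genes tested, at 0.05. CPM use TMM-scaled library sizes, and log2 CPM a prior count of 1. Fold changes are KO over WT, and SEs are the fold change over the root of F. Same-numbered libraries deviated together from their group means (r = 0.768, 0.85 and 0.643, other combinations -0.67 to 0.0445). On this ground, which the labels do not state, the number served as a block. The biological coefficient of variation was 0.0383 with the block, on 2 residual degrees of freedom, and 0.189 without it, on 4. Sharing information between genes raised the degrees of freedom of the tests to a median of 40.8 with the block and 7.01 without it. Lengths and coordinates come from GENCODE M21, the longest coding transcript of each gene.

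The 10 genes and the wider lists were chosen with earlier results of these data known. All 10 are described. Of other lists, genes that passed either test and the most abundant gene were eligible for naming, and other genes named, such as Irf1, Tapbpl and H2-Q10, were picked after their values were seen. A gene eligible for naming is not reported here. The tests were tested on simulated counts. Alternatives were RLE or no scaling, no filter, DESeq2 1.42.0, limma-voom (limma 3.58.1), summed heavy chains and leaving out libraries.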

Additional observations from a re-analysis of the deposited data

How the results depend on the processing

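Without the block, 0 genes rose and 1 fell in all; the replicate block gave 613 and 511, with 1 of the 10 genes, Tapbp, among those that rose (log2 0.23), DESeq2 gave 12 and 7, limma-voom 0 lower, and leaving out 1 library 0 to 1 lower. With the block, library size only gave 471 higher and 734 lower, DESeq2 262 higher and 111 lower, and leaving out a pair 339 to 603 higher and 205 to 600 lower, fewest without pair 2. Tapbp passed under all 9 alternatives with the block (log2 0.18 to 0.28, adjusted p 2.58e-06 to 0.024). Of the 13 alternatives to the test without the block, Tapbp passed only under the one that added the block. The other 9 genes passed under no alternative, and those near 0 changed sign. H2-D1 was at -0.022 by library size only (-0.017 with the block). With heavy chains summed, 1 row of 19 added genes stood in for H2-K1, H2-D1 and H2-T23, at -0.0042 (0.0049 with the block). That is a value of the sum and not of any single heavy chain gene. Leaving out 1 library gave -0.19 to 0.11 for B2m, -0.14 to 0.16 for H2-D1, -0.17 to 0.19 for H2-K1, -0.44 to 0.18 for Nlrc5 and -0.14 to 0.0047 for Tap2. It kept the sign but moved the value by over 1.5 times for Psmb8 (0.06 without WT 2 to 0.26 without WT 3), Psmb9 (0.0031 without WT 2 to 0.29 without WT 3), Tap1 (-0.16 without WT 2 to -0.0028 without WT 3), H2-T23 (0.10 without WT 1) and Tapbp (0.14 without WT 2). Leaving out a pair gave -0.013 to 0.049 for H2-D1 (-0.010 without pair 2), -0.040 to 0.045 for H2-K1, -0.19 to 0.029 for Nlrc5 and -0.022 to 0.31 for Psmb9. The causes were not tested. With 3 libraries a group, the 95% intervals without the block ran from -0.06 to 0.38 at the narrowest (H2-T23) to -0.83 to 0.70 at the widest (Nlrc5), and differences within them were not detectable.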

Other observations

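Other surface ligands of lymphocytes were also read. Of 16 genes for costimulation and natural killer cell ligands listed, 11 were tested, and 2 rose and 0 fell in the paired test, where 4.81% of all genes tested rose and 4.01% fell. Cd276, a checkpoint ligand also called B7-H3, had 71.4, 90.8 and 59.0 CPM in KO 1 to 3, against 58.0, 79.9 and 51.7 CPM in WT 1 to 3 (paired log2 fold change 0.23, adjusted p = 0.00185, higher in 3 of 3 pairs). Ulbp1, a ligand of the activating receptor NKG2D, had 82.7, 60.1 and 89.6 CPM in KO 1 to 3, against 76.6, 49.6 and 80.6 CPM in WT 1 to 3 (adjusted p = 0.0192, higher in 3 of 3 pairs). Neither passed without the block, and the groups overlapped in both. The 2 genes ranked the numbers in opposite ways, with the libraries numbered 2 highest for Cd276 and lowest for Ulbp1. Cd274, which encodes the checkpoint ligand PD-L1, averaged 5.11 ± 0.843 CPM in KO and 5.56 ± 0.947 CPM in WT and did not pass (paired adjusted p = 0.668).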
